A study of Mus musculus with 6 samples.

Results

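The genes described here are those of MHC class I and class II antigen presentation in mouse jejunal epithelium: 29 genes whose symbol starts with H2- and 21 named partners, from the light chain B2m to the lysosomal protease Ctss. They were chosen by symbol from the array's probe annotation, and each was read from its probe set with the highest mean among those annotated to 1 gene. All 50 were measured, of 19933 genes with such a probe set. The study hybridised RNA from epithelial cells of the jejunum to Affymetrix Gene 1.0 ST arrays, 1 array per sample. It compared 3 samples from TRE-MSI2::R26-M2rtTA mice (transgenic) with 3 from R26-M2rtTA mice (control), which carry the reverse tetracycline transactivator but not the inducible MSI2 transgene. All mice drank water with doxycycline, the drug that switches the transactivator on, for 24 hours, so drug and transactivator were shared. The transactivator is under the Rosa26 locus, which is active in most cell types, and so is not restricted to epithelium by its promoter. Strain, age and H2 haplotype are not given in the sources used here.

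MHC class I molecules, made of a heavy chain and the light chain B2m, present peptides from the cytosol to CD8 T cells. The peptides are cut by the proteasome, in which interferon-gamma can replace the constitutive catalytic subunits by the immunoproteasome subunits Psmb8, Psmb9 and Psmb10, then carried into the endoplasmic reticulum by the Tap1 and Tap2 transporter and loaded with the help of Tapbp. Class II molecules carry the invariant chain Cd74 until H2-DM exchanges its remnant for a peptide in the endosome, and present to CD4 T cells. Enterocytes of the small intestine express class II as well as class I, which sets them apart from most epithelia.

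Values are log2 levels, and a difference is the mean of the transgenic arrays minus that of the control arrays. A gene was called at an adjusted p of 0.05 or less, by limma with Benjamini-Hochberg adjustment over all 19933 genes. The arrays had medians between 6.42 and 6.46. Transcripts that should be absent (Xist in males, Y-linked genes in females) read 4.07 to 5.06, the range taken here as background. The epithelial marker Epcam averaged 12.74 in the transgenic and 12.77 in the control arrays. Msi2, the gene named in the transgene, read 11.23, 10.58 and 11.44 in the transgenic arrays, against 11.30, 9.53 and 9.32 in the control arrays, a difference of 1.03 with an adjusted p of 0.257. Control replicate 1 therefore lay within the transgenic range for Msi2. Its relative Msi1 read 13.44, 12.82 and 13.53 in the transgenic arrays, against 7.20, 7.97 and 7.62 in the control arrays (50.7-fold higher, adjusted p = 0.000818). Msi1 thus separated all arrays by label, with control replicate 1 the lowest, while Msi2 did so for all but control replicate 1. What set Msi2 apart in this array was not tested. As a caution, the groups are called transgenic-labelled and control-labelled from here on. The class II results are given with and without control replicate 1.

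Of the 50 genes, 19 (38%) were lower in the transgenic-labelled arrays, none was higher and 31 did not pass the test. Over all genes tested, 9.65% were called lower and 8.97% higher. These shares also stand beside the counts of the gene lists below. At an unadjusted p under 0.05, limma gave 25 of the 50 lower and 0 higher. The share over all genes at that threshold was not computed, so this count cannot be weighed. The groups did not overlap, with all transgenic-labelled arrays lower, in 23 genes (17.5% over all genes), and in the opposite direction in 1, H2-Oa (19.5% over all genes). The mean was lower in 41 of the 50 (45.8% over all genes). The median difference of the 50 genes was -0.60, beside 0.02 over all genes. By role, the called genes were all 5 of the immunoproteasome and its activator, 3 of 5 in peptide transport, trimming and loading, 3 of 20 class I heavy chains, 1 of 5 class II chains, 3 of 6 in class II loading and processing, 3 of 5 transcriptional regulators, and H2-Ke6, which lies among the H2 genes but encodes a dehydrogenase and no presenting molecule. Neither B2m nor the class I-like genes Cd1d1 and Mr1 passed. In 7 of the 50, H2-Ea and 6 H2-M genes, no array was above 5.06, the top of the background range. A fit with the replicate number as a block called 26 of the 50 lower and 0 higher, beside 13.1% lower over all genes. The labels state no pairing, and this block was adopted from correlations in these same values. Its p-values here and below show how calls depend on the model and are not separate support. Without control replicate 1, 22 were called lower, beside 14.4% over all genes. By Xist and Y-linked genes, transgenic-labelled replicates 1 and 2 were male and 3 female, while control-labelled replicates 1 and 3 were female and 2 male. Sex was therefore not balanced between the groups. A fit with sex as a block called 12 lower and 0 higher, beside 5.47% lower and 5.36% higher over all genes. The sex block dropped Cd74, H2-Bl, H2-Ke6, H2-Q5, Ifi30, Rfx5 and Rfxank, at adjusted p-values of 0.0530 to 0.100.

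**Figure D1:**
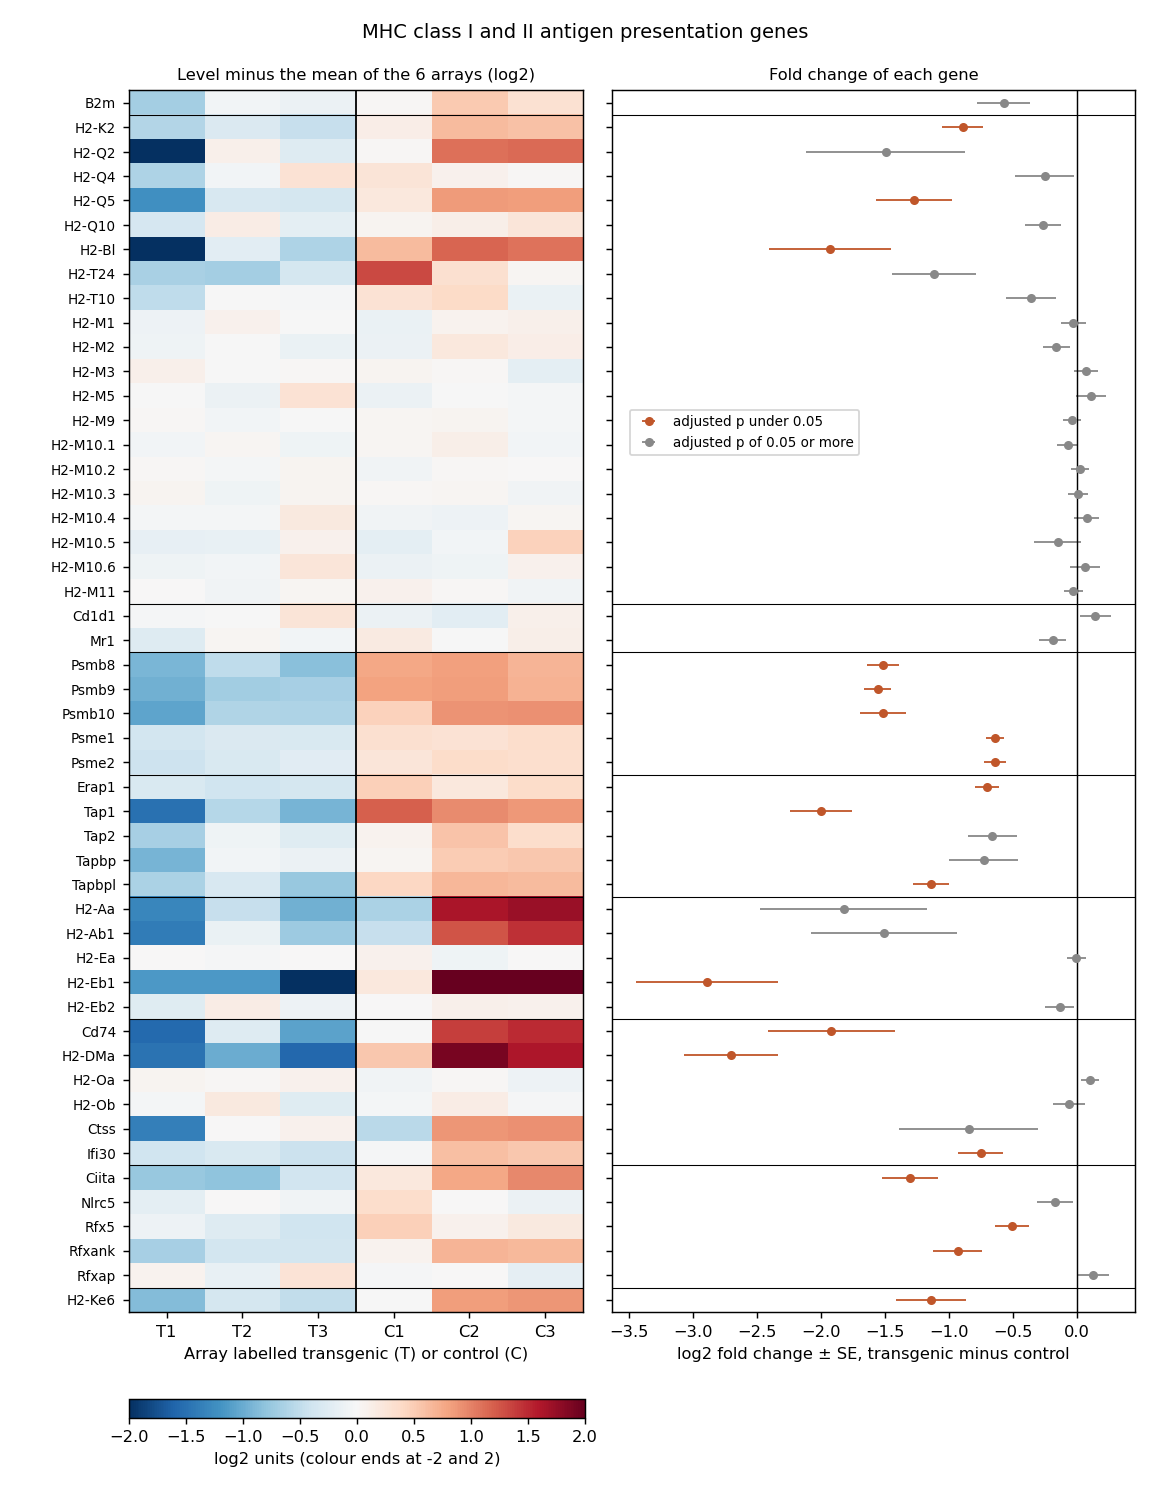
The 50 genes ordered by role, with each array's log2 level relative to the gene's mean over the 6 arrays (left) and the difference, transgenic-labelled minus control-labelled, in log2 units with its standard error (right, coloured where called). The 5 immunoproteasome and activator genes are low in each of the 3 transgenic-labelled arrays, while control replicate 1 is below the other control-labelled arrays for most class II genes.

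The plot of all 50 genes shows 2 arrangements: peptide supply genes separate the groups in every array, and class II genes also split the control-labelled arrays.

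The 3 inducible catalytic subunits of the immunoproteasome were each lower by about the same amount. Psmb8 read 7.59, 7.99 and 7.66 in the transgenic-labelled arrays, against 9.27, 9.33 and 9.18 in the control-labelled arrays. Psmb9 read 8.05, 8.32 and 8.35 in the transgenic-labelled arrays, against 9.82, 9.85 and 9.72 in the control-labelled arrays. The groups were well apart for both, and control replicate 1 stood with its own group. Psmb8 fell by 1.51 (SE 0.12, adjusted p = 0.00242), a 2.85-fold lower level, and Psmb9 fell by 1.56 (SE 0.10, adjusted p = 0.00153), 2.94-fold lower. Psmb10, the counterpart with trypsin-like activity, read 9.04, 9.50 and 9.47 in the transgenic-labelled arrays, against 10.55, 10.99 and 11.01 in the control-labelled arrays. Its groups did not overlap either, and it was 2.86-fold lower (adjusted p = 0.00619). The subunits of the PA28 activator, a ring that opens the proteasome and changes which peptides leave it, fell less. Psme1 read 10.20, 10.27 and 10.26 in the transgenic-labelled arrays, against 10.88, 10.85 and 10.92 in the control-labelled arrays. Psme2 read 11.50, 11.61 and 11.68 in the transgenic-labelled arrays, against 12.16, 12.29 and 12.25 in the control-labelled arrays. Both were lower in every transgenic-labelled array, 1.56-fold each (adjusted p = 0.00477 and 0.00738 by limma). All 5 genes stayed called under each of the 16 alternatives tried. A further probe set annotated to both Psme2b and Psme2 read 9.78, 9.76 and 9.95 in the transgenic-labelled arrays, against 10.79, 10.73 and 10.65 in the control-labelled arrays, and was called too (adjusted p = 0.00419 over all probe sets).

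The constitutive subunits that these replace were not lower. Psmb5, the counterpart of Psmb8, was higher by 0.56 (SE 0.11, adjusted p = 0.0231), and Psmb7, the counterpart of Psmb10, by 0.74 (SE 0.15, adjusted p = 0.0219). Each call was lost without transgenic-labelled replicate 1 or 3 or control-labelled replicate 2 or 3, with adjusted p-values of 0.0828 to 0.0922 for Psmb5 and 0.0774 to 0.0893 for Psmb7. Psmb6, the counterpart of Psmb9, differed by 0.44 (adjusted p = 0.0897). A list of 6 genes held Psmb5, Psmb6 and Psmb7 with the activators Psme3 and Psme4 and with Pomp. In it 0 were lower and 2 higher, with a median difference of 0.42. With the replicate block 4 of the 6 were higher, beside 12.7% over all genes. On leaving out control replicate 1, 5 were higher, beside 13.4% over all genes.

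**Figure D2:**
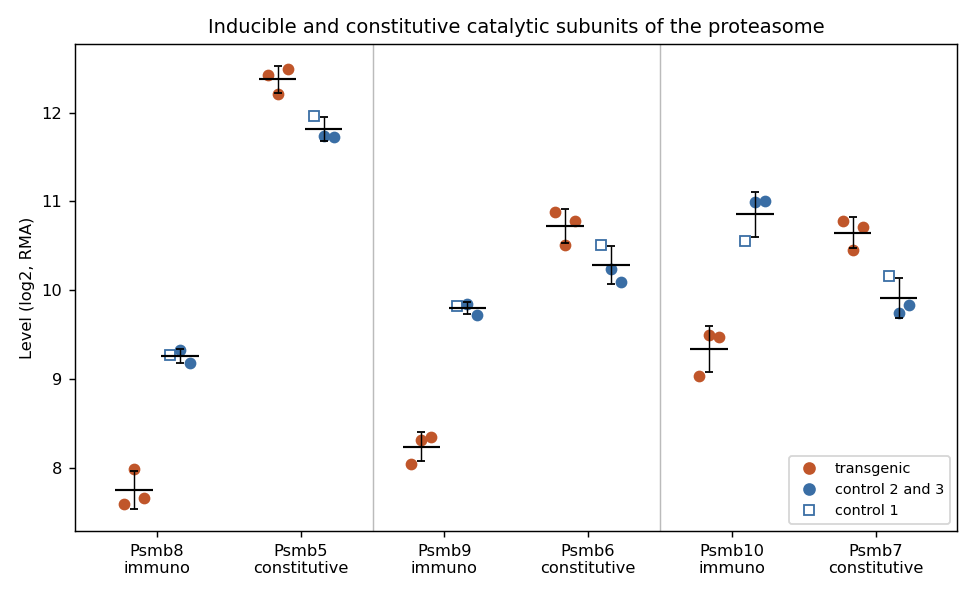
Log2 levels of the inducible subunits Psmb8, Psmb9 and Psmb10 and of the constitutive subunits they replace, with 1 point per array, control replicate 1 as an open square and group means with SD. Each inducible subunit is lower in all 3 transgenic-labelled arrays, for example 7.59 to 7.99 against 9.18 to 9.33 for Psmb8, while Psmb5 and Psmb7 are higher there.

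The plot of subunit pairs shows that the opposite signs held array by array for Psmb8 with Psmb5 and for Psmb10 with Psmb7.

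Tap1, which with Tap2 forms the peptide pump into the endoplasmic reticulum, read 7.41, 8.33 and 7.98 in the transgenic-labelled arrays, against 10.10, 9.85 and 9.77 in the control-labelled arrays. All control-labelled arrays were above all transgenic-labelled ones, and the level was 3.99-fold lower (adjusted p = 0.00619). Tap2 differed by less: its levels were 7.95, 8.53 and 8.38 in the transgenic-labelled arrays and 8.69, 9.18 and 8.97 in the control-labelled arrays. It did not pass (1.58-fold lower, adjusted p = 0.0619). It passed with the replicate block (0.00855), with array weights (0.00972), over brighter genes alone (0.0466), and without control replicate 1 (0.0317) or transgenic replicate 2 (0.0492). Erap1, the aminopeptidase that trims peptides to length for class I, read 9.27, 9.17 and 9.21 in transgenic-labelled and 10.05, 9.77 and 9.93 in control-labelled arrays (1.62-fold lower, adjusted p = 0.00804). Tapbpl, a peptide editor related to tapasin, read 7.53, 7.84 and 7.40 in the transgenic-labelled arrays, against 8.58, 8.82 and 8.79 in the control-labelled arrays. It too did not overlap between groups (2.2-fold lower, adjusted p = 0.00646). Tapasin itself, Tapbp, read 10.28, 11.16 and 11.10 in the transgenic-labelled arrays and 11.25, 11.72 and 11.75 in the control-labelled arrays. The low array of each group carried number 1, and the adjusted p was 0.118, against 0.0127 with the replicate block and 0.0249 with array weights. Tap1, Erap1 and Tapbpl stayed called under all 16 alternatives. Among 8 endoplasmic reticulum chaperones and loading genes, which include Erap1 and Tapbp, 1 was lower and 1 higher. The higher one, the chaperone Hspa5, differed by 0.73 (adjusted p = 0.0118) and was not called without transgenic replicate 3 (0.0532), control replicate 2 (0.0567) or control replicate 3 (0.0509). The class I folding chaperones Canx and Calr differed by -0.16 and 0.08 and did not pass.

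The promoters of Tap1, Psmb8, the light chain B2m and the class II chains H2-Aa and H2-Eb1 are printed because these genes stood differently in the test: Tap1 and Psmb8 were called under all 16 alternatives, H2-Eb1 under some, and B2m and H2-Aa were not called without a replicate block, array weights or, for H2-Aa, the omission of control replicate 1. Sequences are those of RefSeq on GRCm38.p6, 250 bases up to the transcription start, 5′ to 3′ on the gene's strand. Capitals mark matches, on either strand, to 4 motifs: CCNAGNNAC for the X1 box of MHC promoters, CCAAT for their Y box, the interferon-stimulated response element (a pair of GAAA spaced by 2 bases) and TTCNNNGAA for an interferon-gamma activated site. Among the 32851 promoter windows of the RefSeq table, which run to 50 bases past the start, they occurred in 17.302%, 37.408%, 3.443% and 8.298%. Where motif matches overlap, the capitals run together.
Tap1 (chr17:34187306-34187555, plus strand): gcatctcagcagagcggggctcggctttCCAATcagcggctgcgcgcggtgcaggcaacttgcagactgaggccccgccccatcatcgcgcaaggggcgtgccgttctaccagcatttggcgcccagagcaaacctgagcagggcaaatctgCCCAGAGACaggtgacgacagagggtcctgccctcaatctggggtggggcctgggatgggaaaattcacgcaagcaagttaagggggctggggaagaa
Psmb8 (chr17:34197945-34198194, plus strand): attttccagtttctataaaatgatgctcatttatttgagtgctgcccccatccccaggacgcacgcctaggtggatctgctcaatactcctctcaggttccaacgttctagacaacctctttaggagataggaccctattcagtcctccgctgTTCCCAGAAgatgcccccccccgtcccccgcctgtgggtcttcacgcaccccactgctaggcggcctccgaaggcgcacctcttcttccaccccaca
B2m (chr2:122147437-122147686, plus strand): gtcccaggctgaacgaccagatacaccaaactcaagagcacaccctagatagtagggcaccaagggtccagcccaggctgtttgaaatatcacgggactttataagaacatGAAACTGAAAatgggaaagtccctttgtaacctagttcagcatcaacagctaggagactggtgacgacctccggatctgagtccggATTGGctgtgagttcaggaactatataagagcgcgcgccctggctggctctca
H2-Aa (chr17:34287824-34288073, minus strand): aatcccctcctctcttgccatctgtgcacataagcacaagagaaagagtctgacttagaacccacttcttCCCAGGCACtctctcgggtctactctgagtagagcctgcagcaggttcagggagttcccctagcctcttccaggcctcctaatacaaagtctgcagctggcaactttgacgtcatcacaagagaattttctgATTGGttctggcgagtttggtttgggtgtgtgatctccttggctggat
H2-Eb1 (chr17:34305617-34305866, plus strand): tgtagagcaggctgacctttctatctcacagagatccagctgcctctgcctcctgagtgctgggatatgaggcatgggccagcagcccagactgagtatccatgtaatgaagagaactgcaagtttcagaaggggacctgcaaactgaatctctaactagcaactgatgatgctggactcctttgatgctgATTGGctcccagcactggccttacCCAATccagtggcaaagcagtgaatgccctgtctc

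The Tap1 window held an X1 box match 98 to 90 bases before the start and a Y box match 222 to 218 bases before it. Psmb9 is transcribed the other way from a start 226 bases off, so the same interval is the promoter of both called genes. Psmb8 held an activated-site match 97 to 89 bases before its start. B2m held a response-element match 139 to 130 and a Y box match 53 to 49 bases before its start. H2-Aa held a match to the X1 letters 180 to 172 and a Y box match 48 to 44 bases before its start. Whether the first of these is the X box of this promoter was not tested. H2-Eb1 held 2 Y box matches and none to the X1 letters used. RefSeq windows existed for 36 of the 50 genes, 13 of them called lower. An X1 box match occurred in 3 of these 13 and 9 of the other 23, a Y box match in 7 and 19, a response-element match in 2 (Erap1 and Psme1) and 2 (B2m and Ctss), and an activated-site match in 1 (Psmb8) and 2. A match describes letters only, and its absence says only that these letters are not in the window.

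B2m, the light chain shared by all class I molecules, read 12.19, 12.80 and 12.75 in the transgenic-labelled arrays, against 12.89, 13.39 and 13.17 in the control-labelled arrays. The groups did not overlap, with control replicate 1 just above the highest transgenic-labelled array, and replicate 1 was the lowest array of each group. The difference was -0.57 (SE 0.21, adjusted p = 0.113, against 0.0156 with the replicate block and 0.0245 with array weights). Of 20 heavy chain genes with a probe set of their own, 3 were lower and 0 higher, with a median difference of -0.11. H2-Bl, a class I gene of the non-classical group, read 6.63, 8.48 and 8.08 in the transgenic-labelled arrays, against 9.33, 9.86 and 9.79 in the control-labelled arrays (3.8-fold lower, adjusted p = 0.0396). H2-Q5, of the Qa region, read 8.41, 9.32 and 9.28 in transgenic-labelled and 9.85, 10.49 and 10.48 in control-labelled arrays (2.41-fold lower, adjusted p = 0.0353). H2-K2 read 5.95, 6.24 and 6.07 in the transgenic-labelled arrays, against 6.66, 7.16 and 7.11 in the control-labelled arrays (1.85-fold lower, adjusted p = 0.0171). None of the 3 overlapped between groups, yet each call rested on several arrays. H2-Bl was lost without control replicate 2 (0.131) or 3 (0.132) or transgenic replicate 3 (0.100). H2-Q5 was lost without transgenic replicate 1 (0.0667) or 3 (0.0856) or control replicate 2 (0.124) or 3 (0.127). H2-K2 was lost on leaving out the same 4 arrays, with adjusted p-values of 0.0625 to 0.0735.

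H2-Q2 read 9.34, 11.52 and 11.15 in the transgenic-labelled arrays, against 11.44, 12.52 and 12.55 in the control-labelled arrays. The groups overlapped, control replicate 1 lying below the highest transgenic-labelled array, and the 2.82-fold difference had an adjusted p of 0.154 (0.0121 with the replicate block and 0.0311 with array weights). H2-T24 read 5.55, 5.51 and 5.84 in the transgenic-labelled arrays and 7.51, 6.52 and 6.23 in the control-labelled arrays. Here control replicate 1 was the highest array, and without it the difference was -0.74 (adjusted p = 0.0177) in place of -1.12 (0.0645). It also passed with array weights (0.0329), the intensity trend (0.0462) or brighter genes alone (0.0436). H2-Q10, a secreted class I molecule best known from liver, differed by -0.26 (adjusted p = 0.255, and 0.0491 without transgenic replicate 2). H2-M3, which presents formylated bacterial peptides, differed by 0.08 (adjusted p = 0.638), and the other H2-M genes ranged from -0.16 to 0.11. Cd1d1, which presents lipids to NKT cells, read 5.67, 5.68 and 5.95 in the transgenic-labelled arrays and 5.58, 5.49 and 5.80 in the control-labelled arrays. Mr1, which presents vitamin B metabolites to MAIT cells, read 5.53, 5.83 and 5.74 in the transgenic-labelled arrays and 5.98, 5.78 and 5.91 in the control-labelled arrays. The groups overlapped for both, with differences of 0.15 and -0.19 (adjusted p = 0.472 and 0.287 by limma).

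A further 13 symbols of the rule have no probe set of their own and are not counted among the 50. They include the classical heavy chains H2-K1 and H2-D1. A probe set annotated to H2-D1, LOC547349 and H2-K1 read 11.61, 12.27 and 12.35 in the transgenic-labelled arrays and 11.89, 12.47 and 12.51 in the control-labelled arrays. The groups overlapped and it did not pass (-0.22, adjusted p = 0.648 over all 28350 probe sets, of which 7.33% were called lower). The one annotated to the same genes in another order differed by -0.58 (adjusted p = 0.370, and 0.0207 with the replicate block). The probe set annotated to both H2-T3 and H2-T18, whose product on epithelium binds CD8 alpha homodimers of intraepithelial lymphocytes, read 6.53, 8.72 and 8.32 in the transgenic-labelled arrays, against 10.32, 10.95 and 10.99 in the control-labelled arrays. All control-labelled arrays were higher, and the level was 7.45-fold lower (adjusted p = 0.0255 over all probe sets), a call lost without transgenic replicate 3 (0.0787), control replicate 2 (0.0994) or control replicate 3 (0.101), and with the sex block (0.0667). The probe set annotated to both H2-Q1 and H2-Bl differed by -1.24 and did not pass (adjusted p = 0.206, and 0.0208 with the replicate block), unlike the one of H2-Bl alone. The one annotated to both H2-Q6 and H2-Q8 differed by -1.07 (adjusted p = 0.0584, and 0.0462 without control replicate 1). A pair of probe sets annotated to both Rps3a1, a ribosomal protein gene, and Tapbp differed by 0.08 and 0.06 and did not pass. Probe sets shared by H2-T-ps with H2-T23 and by H2-T9, H2-T22 and H2-T10 differed by -1.02 and -0.84. Neither passed (adjusted p = 0.224 and 0.102 over all probe sets), but both did with the replicate block (0.00743 and 0.00946) or without control replicate 1 (0.0436 and 0.0431).

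Of 5 class II chain genes 1, H2-Eb1, was called lower, and the control-labelled arrays differed widely from each other for 3 of them. H2-Eb1, the beta chain of I-E, read 8.07, 8.07 and 7.17 in the transgenic-labelled arrays, against 9.43, 11.22 and 11.33 in the control-labelled arrays. The groups did not overlap, and it was 7.42-fold lower (log2 difference -2.89, SE 0.55, adjusted p = 0.0203). H2-Ab1, the beta chain of I-A, read 10.02, 11.28 and 10.68 in the transgenic-labelled arrays and 10.96, 12.67 and 12.88 in the control-labelled arrays. Its partner H2-Aa read 9.53, 10.38 and 9.88 in the transgenic-labelled arrays, against 10.21, 12.46 and 12.57 in the control-labelled arrays. For both I-A chains control replicate 1 fell within the transgenic-labelled range, and neither passed (differences of -1.51 and -1.82, adjusted p = 0.124 and 0.108 by limma). Without control replicate 1 the differences were -2.11 for H2-Ab1, -2.59 for H2-Aa and -3.50 for H2-Eb1, with limma adjusted p-values of 0.0112, 0.00316 and 0.00243. The replicate block also brought H2-Ab1 (0.0155) and H2-Aa (0.0300) past the threshold, as did array weights (0.00713 and 0.00462). H2-Eb1 lost its call without transgenic replicate 1 (0.0595) or 3 (0.0817) or control replicate 2 (0.0797) or 3 (0.0789). The I-E alpha chain H2-Ea stayed within background in every array, and H2-Eb2 differed by -0.13 (adjusted p = 0.499).

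H2-DMa, the alpha chain of the peptide exchange factor H2-DM, read 7.23, 7.71 and 7.13 in the transgenic-labelled arrays, against 9.25, 10.60 and 10.32 in the control-labelled arrays. It was 6.5-fold lower (SE 0.37 on the log2 scale, adjusted p = 0.00838), with control replicate 1 between the other control-labelled arrays and the transgenic-labelled ones, and it stayed called under all 16 alternatives. The probe set annotated to both H2-DMb2 and H2-DMb1 read 6.43, 6.39 and 5.93 in the transgenic-labelled arrays, against 7.47, 8.27 and 8.45 in the control-labelled arrays (3.52-fold lower, adjusted p = 0.0141 over all probe sets). That call was lost without transgenic replicate 3 (0.0619) or control replicate 2 (0.0645) or 3 (0.0575). Cd74, the invariant chain, read 9.49, 10.77 and 9.97 in the transgenic-labelled arrays, against 11.03, 12.43 and 12.53 in the control-labelled arrays. The highest transgenic-labelled array was close below control replicate 1, and the 3.78-fold difference had an adjusted p of 0.0450. It did not pass without transgenic replicate 1 (0.133) or 3 (0.144) or control replicate 2 (0.147) or 3 (0.148). Without control replicate 1 the difference was -2.40 (adjusted p = 0.00831).

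Ifi30, the thiol reductase that opens disulfide bonds of endocytosed proteins, read 10.73, 10.83 and 10.70 in transgenic-labelled and 11.10, 11.73 and 11.67 in control-labelled arrays (1.68-fold lower, adjusted p = 0.0347). It was called on leaving out control replicate 1, but not on leaving out any other array (0.0562 to 0.124). Ctss, the protease that cuts the invariant chain, read 8.07, 9.44 and 9.52 in the transgenic-labelled arrays and 8.89, 10.32 and 10.35 in the control-labelled arrays. Within each number the transgenic-labelled array was lower, while the groups overlapped, and the adjusted p was 0.351 without and 0.00544 with the replicate block. H2-Oa and H2-Ob, the chains of the inhibitor of H2-DM, differed by 0.10 and -0.06 and did not pass.

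Endosomal proteases other than Ctss were higher or did not pass. Lgmn, an asparaginyl endopeptidase, read 11.65, 11.71 and 11.70 in the transgenic-labelled arrays, against 9.01, 9.35 and 9.35 in the control-labelled arrays. Ctsl, which processes the invariant chain in thymic epithelium, read 10.54, 10.63 and 10.12 in the transgenic-labelled arrays, against 8.23, 8.84 and 8.61 in the control-labelled arrays. Lgmn was higher by 2.45 (SE 0.11, adjusted p = 0.000818) and Ctsl by 1.87 (SE 0.20, adjusted p = 0.00481), with no overlap, and both calls held under every omission of 1 array. Of the 7 genes in that list 3 were higher and 0 lower, the third being Ctse (0.90, adjusted p = 0.0142, and 0.0625 without control replicate 2).

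**Figure D3:**
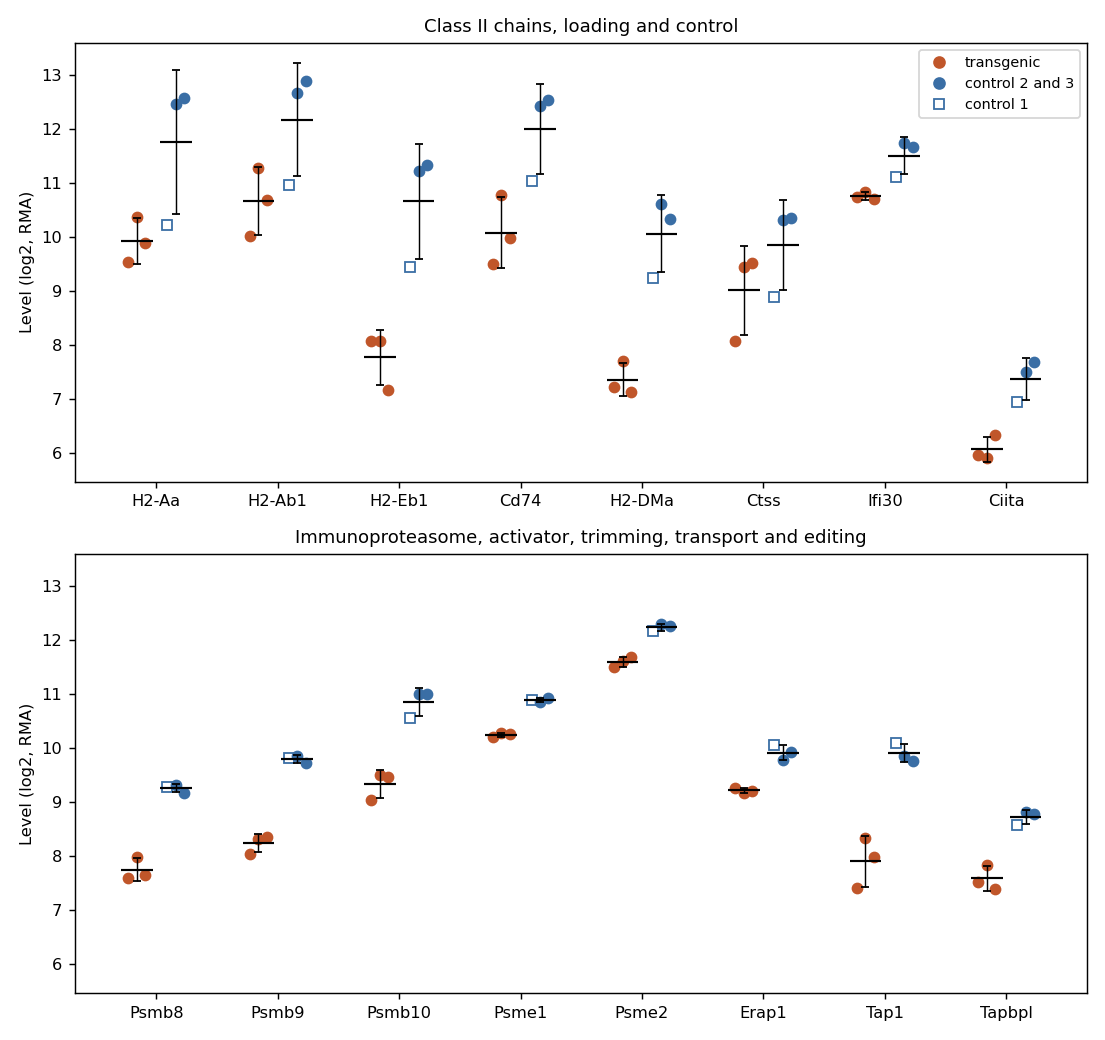
Log2 levels of class II genes and of peptide supply genes, with 1 point per array, control replicate 1 as an open square and group means with SD. Control replicate 1 lies well below the other control-labelled arrays for H2-Aa, at 10.21 against 12.46 and 12.57, but beside them for Psmb9, at 9.82 against 9.85 and 9.72.

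Control replicate 1 is compared here with the other control-labelled arrays for both sets in the plot of class II and peptide supply genes. Control replicate 1 minus the mean of the other control-labelled arrays was -2.31 for H2-Aa, -1.84 for H2-Eb1, -1.81 for H2-Ab1, -1.45 for Cd74 and -1.22 for H2-DMa. Over the 10 genes of the immunoproteasome, its activator and peptide transport, trimming and loading, the same quantity ran from -0.49 for Tapbp to 0.29 for Tap1. Psmb10, Tap2 and Tapbpl were also below the other control-labelled arrays there, at -0.45, -0.38 and -0.23, while Psmb8 and Psmb9 were at 0.02 and 0.04.

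Ciita, the coactivator that class II genes need, read 5.97, 5.91 and 6.33 in the transgenic-labelled arrays, against 6.94, 7.49 and 7.69 in the control-labelled arrays. Every transgenic-labelled array was lower, and the level was 2.47-fold lower (SE 0.22 on the log2 scale, adjusted p = 0.0147). The call was lost without transgenic replicate 1 (0.0562) or control replicate 2 (0.0652) or 3 (0.0573). Of the RFX complex, which binds the X box of both classes of promoter, Rfxank read 7.61, 7.90 and 7.90 in transgenic-labelled and 8.33, 8.95 and 8.92 in control-labelled arrays (1.91-fold lower, adjusted p = 0.0241). Rfxank did not pass without transgenic replicate 1 (0.0822) or 3 (0.0797) or control replicate 2 (0.0888) or 3 (0.0927). Rfx5 read 7.18, 7.04 and 6.89 in the transgenic-labelled arrays, against 7.76, 7.37 and 7.49 in the control-labelled arrays. It was 1.42-fold lower (adjusted p = 0.0455), but was lost on leaving out any single array (0.0519 to 0.147), and also under median centring (0.0542), quantile normalization (0.0668) and the intensity trend (0.0520). The third subunit, Rfxap, differed by 0.13 (adjusted p = 0.539).

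Nlrc5, the coactivator of class I genes, was the 1 gene of the 50 with several probe sets. Its brightest read 9.14, 9.33 and 9.26 in the transgenic-labelled arrays and 9.68, 9.33 and 9.21 in the control-labelled arrays, overlapping groups with an adjusted p of 0.469. All 19 of its probe sets had a lower mean in the transgenic-labelled arrays, by -1.42 to -0.05 with a median of -0.53. In 10 the groups did not overlap, beside 17.5% lower without overlap over all genes. The 19 read 1 gene in the same arrays and are not independent counts. By limma over all probe sets 0 were called, and likewise 0 with the replicate block, while 6 were lower at an unadjusted p under 0.05. The share of all probe sets at that unadjusted threshold was not computed. Leaving out control replicate 1 gave 5 calls in the fit over all probe sets. The separate fit over genes called 14.4% of all genes lower in that setting, and the share over all probe sets was not computed. Control replicate 1 was the highest of the 6 arrays in 17 of the 19, above the mean of the other control-labelled arrays by a median of 0.88. Without it the mean was lower in 17 of the 19, and the median difference was -0.20.

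**Figure D4:**
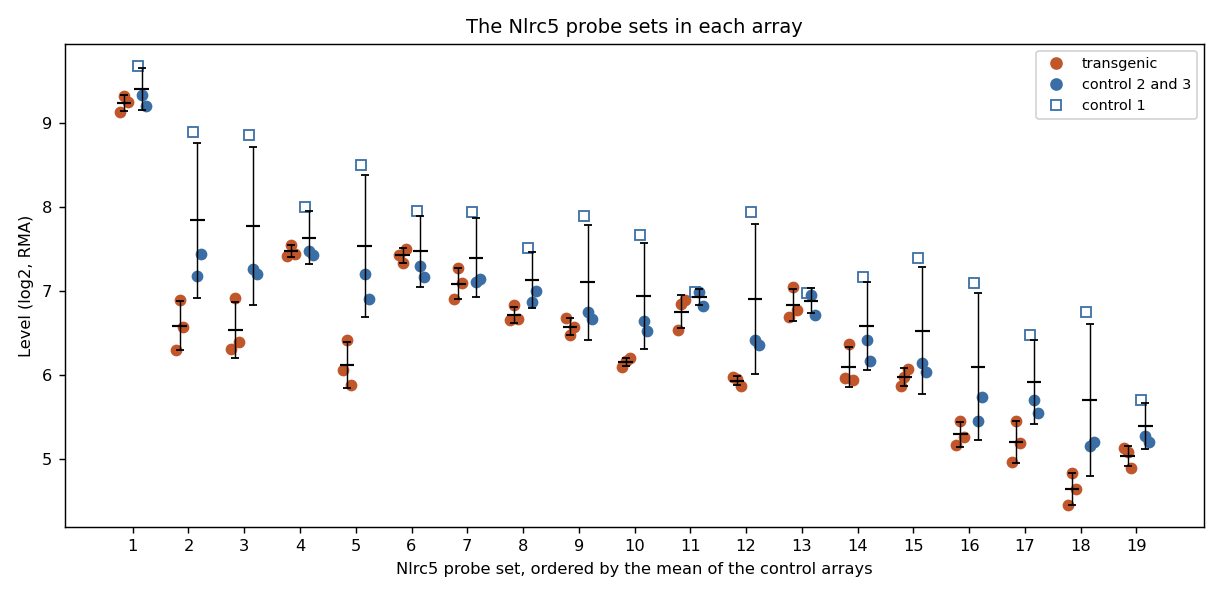
Log2 levels in each of the 6 arrays at the 19 probe sets annotated to Nlrc5, ordered by the control-labelled mean, with control replicate 1 as an open square and group means with SD. Control replicate 1 is the highest array at 17 probe sets, and the transgenic-labelled mean is below the control-labelled mean at all 19, or at 17 on leaving out control replicate 1.

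The plot of the Nlrc5 probe sets shows the reverse of class II for control replicate 1, which was low for H2-Aa, H2-Ab1 and Cd74 and high for Nlrc5.

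Interferon-gamma is the best known inducer of both classes of genes, and its pathway was mixed. Of 20 signalling genes 4 were lower and 4 higher, with a median difference of -0.24, and with sex as a block 3 were lower and 1 higher. Irf1, a transcription factor that acts on Tap1 and Psmb9, read 8.75, 9.50 and 9.02 in the transgenic-labelled arrays, against 10.46, 10.92 and 10.84 in the control-labelled arrays (log2 difference -1.65, adjusted p = 0.00796). Its second probe set differed by -0.26 (adjusted p = 0.0742 over all probe sets). Socs1, a feedback inhibitor of the pathway, read 8.41, 8.16 and 8.68 in the transgenic-labelled arrays, against 6.90, 7.25 and 7.12 in the control-labelled arrays (1.33, adjusted p = 0.0064). Stat2, of the type I interferon pathway, differed by -1.18 (adjusted p = 0.00777), and all 3 calls held under every omission of 1 array. Irf8 differed by -0.82 (adjusted p = 0.0170, and 0.0652 and 0.0649 without control replicate 2 or 3). Ifngr1, a chain of the interferon-gamma receptor, was higher by 0.48 (adjusted p = 0.0335), a call kept on leaving out control replicate 1 and lost on every other omission (0.0615 to 0.121) and with the replicate block (0.0543). Ifng itself was near background, at 5.35 to 5.61 in the transgenic-labelled and 5.57 to 5.82 in the control-labelled arrays, and did not pass. Among 17 other interferon-induced genes 3 were lower and 1 higher, with a median of -0.57. With sex as a block, which dropped Ifit3 and Cxcl11, 1 was lower. The lower ones were Irgm1 (-1.80, adjusted p = 0.0160), Ifit3 (-2.21, adjusted p = 0.0313) and Cxcl11 (-1.05, adjusted p = 0.0374), and the higher one was Mx1 (1.21, adjusted p = 0.00557). Irgm1 was lost without transgenic replicate 1 or 3 or control replicate 2 (0.0532 to 0.0598), Ifit3 without these or control replicate 3 (0.0667 to 0.105), and Cxcl11 on leaving out any array but control replicate 1 (0.0756 to 0.131).

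Marker genes of lymphocytes, which include the producers of interferon-gamma, moved beside these results, and those of the antigen-presenting cells of the blood system did not pass but for 1. Of 20 markers of T cells and intraepithelial lymphocytes, 13 were lower and 1 higher (Cd247, 0.29), with a median of -1.04. Over all genes 9.65% were lower and 8.97% higher. Cd247 kept its call on leaving out control replicate 1 (adjusted p = 0.0369) and on no other omission (0.0770 to 0.133), and it lost it with the replicate block (0.0689). With sex as a block 8 of the 20 were lower and 0 higher, beside 5.47% and 5.36% over all genes. Without a block, the 13 lower ones included Itgae (-1.85, adjusted p = 0.00502) and Nkg7 (-2.53, adjusted p = 0.00585). Of these 13, Itgae, Nkg7 and Lat kept their calls on every omission of 1 array. Each of the others lost its call on leaving out some array, for example Cd8a without transgenic replicate 3 (adjusted p = 0.0604). The list's mean level was 6.29 to 6.98 in transgenic-labelled and 7.65 to 8.06 in control-labelled arrays. In bulk samples, fewer cells of a type and less RNA per cell cannot be told apart. Of 10 B and plasma cell markers 0 were lower and 0 higher, with a mean level of 5.32 to 5.52 in transgenic-labelled and 5.32 to 5.53 in control-labelled arrays, and 5 of them had a mean at or under the top of the background range. At an unadjusted p under 0.05, limma also gave 0 B and plasma cell markers in either direction. Of 20 dendritic cell and macrophage markers 0 were lower and 1 higher (Mrc1, 1.03, a call kept on every omission of 1 array). Their mean level was 5.71 to 5.85 in transgenic-labelled and 5.55 to 5.74 in control-labelled arrays, and 3 had a mean at or under the background top. Of 8 neutrophil markers 0 were lower and 2 higher (S100a9 and Cxcr2), and 1 was higher with sex as a block. Cxcr2 was not called without transgenic replicate 3 (0.0620) or control replicate 2 (0.0734) or 3 (0.0674). The mean level of the list was 5.45 to 5.66 in transgenic-labelled and 5.12 to 5.15 in control-labelled arrays, and 2 had a mean at or under the background top. Of 10 epithelial markers 3 were lower (Cdx1, Cdx2 and Vil1) and 2 higher (Krt18 and Cdh1, the second of these not with the replicate block, at 0.0718). Krt18 kept its call on every omission of 1 array, while each of the others lost its call on several omissions. With sex as a block 1 was lower and 1 higher. The mean level of the list was 11.77 to 11.94 in transgenic-labelled and 11.84 to 11.92 in control-labelled arrays. The part of the lymphocyte markers in the lower antigen presentation genes was not tested.

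**Figure D5:**
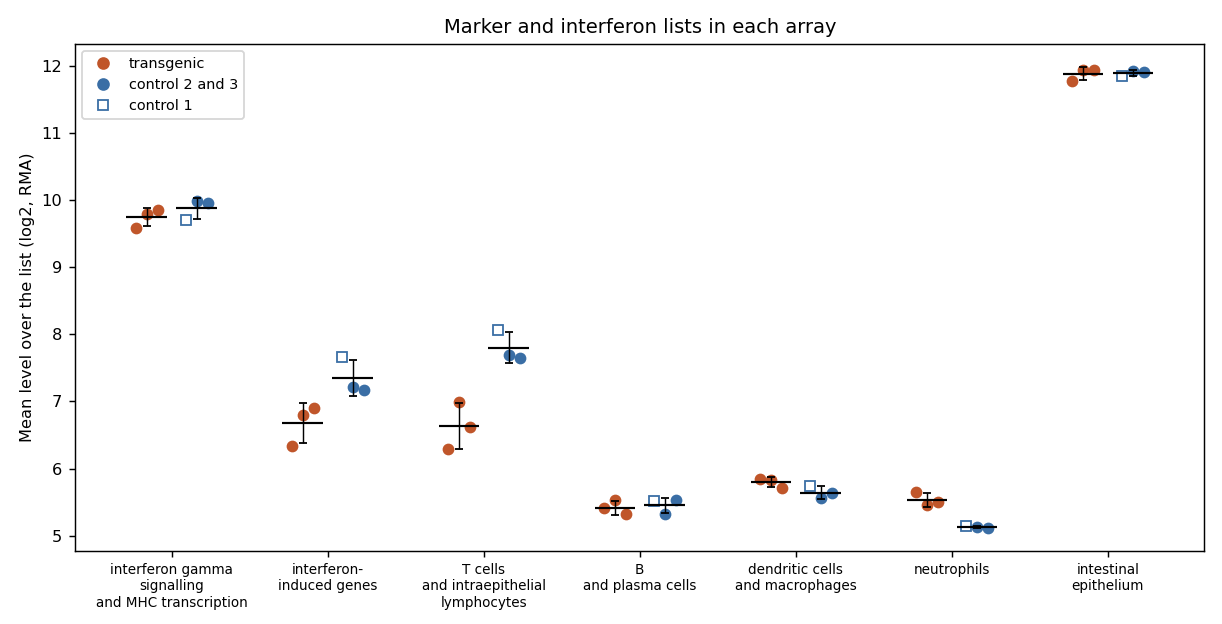
Mean log2 level over each interferon list and cell marker list in every array, with 1 point per array, control replicate 1 as an open square and group means with SD. The lymphocyte list runs at 6.29 to 6.98 in transgenic-labelled and 7.65 to 8.06 in control-labelled arrays, while the epithelial list runs at 11.77 to 11.94 and 11.84 to 11.92.

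The plot of list levels by array separates the groups for interferon-induced genes, at 6.34 to 6.90 in transgenic-labelled and 7.16 to 7.66 in control-labelled arrays, and for lymphocyte markers. It also separates them for neutrophil markers, in the opposite direction, at the levels given above, which are close to background. Control replicate 1 was the highest array in the interferon-induced and the lymphocyte lists, unlike for the class II genes. The lists of B cells and of dendritic cells with macrophages, the professional antigen-presenting cells, overlapped between the groups and had median differences of -0.08 and 0.16. The mean levels of both lists, like that of the neutrophil list, lay close to background, which limits what they show. Most dendritic cell and macrophage markers had a mean above the background range. Whether these cells changed in number was not tested.

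H2-Ke6, the dehydrogenase gene within the H2 complex, read 6.80, 7.32 and 7.18 in the transgenic-labelled arrays, against 7.66, 8.51 and 8.55 in the control-labelled arrays (2.21-fold lower, adjusted p = 0.0369). It was lost without transgenic replicate 1 or 3 or control replicate 2 or 3 (0.112 to 0.126). Many of the 50 genes are neighbours on chromosome 17, so the other genes of the stretch from Tapbp to H2-Eb2 were read too. Of its 13 measured members of the presentation set, 6 were lower and 0 higher, with a median of -1.51. Of its 11 other genes 4 were lower, namely Rgl2, B3galt4, Ring1 and Rxrb (differences of -0.88 to -0.39), 0 were higher and the median was -0.12. Over all genes 9.65% were lower and 8.97% higher.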

How the data were processed

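RNA from 6 samples of jejunal epithelium, called biological replicates by the labels, was hybridised to 1 array each. The deposited log2 values were used as they are; per the submitters' processing notes they were made with Partek and RMA, which corrects background, normalizes by quantiles and summarises probes. Their log2 scale was judged from their range, and no genome build was found among the labels. Of 28350 probe sets, 21780 were annotated to 1 gene, 1618 to several and 4952 to none, and 21689 of the 21780 matched RefSeq (GRCm38.p6). Each of 19933 genes was read from its brightest 1-gene probe set, and probe sets of several genes were fitted separately.

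Differences were tested in R 4.3.3 with limma 3.58.1, group as the only term, moderated over all genes with Benjamini-Hochberg adjustment, after a check on simulated data. With 3 arrays per group, the p-values measure the spread between these samples, and so small a number of arrays limits precision. Deviations of same-numbered arrays from their group means correlated at 0.52, 0.41 and 0.13, so the labels' replicate numbers were treated as pairs in an alternative fit. No label states a pairing. Because the pairs were adopted from these same values, a lower p-value with the replicate block is not separate support for a call. Control replicate 3 also correlated with transgenic replicate 2, at 0.32. Other alternatives were array weights, sex as a block, the mean of a gene's probe sets, a mean of at least 6, quantile normalization, median centring, an intensity trend, a threshold of 0.01 and leaving out each array. A block without the pair numbered 1 was added after seeing the data, as was the fit over all probe sets. The genes and lists were chosen with earlier results of these data known. Called genes and the defining genes of each role are given in every array, and of each list the counts with up to 4 genes of lowest p.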

Additional observations from a re-analysis of the deposited data

How the results depend on the processing

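Every alternative kept all called genes of the 50 lower in direction, and 0 were called higher under any. The number called lower, 19 of 50 with all arrays, was 12 with sex as a block and 9 at a threshold of 0.01, and ranged from 9 to 22 on leaving out 1 array. The fewest came without control replicate 2 or 3 and the most without control replicate 1. Over all genes, 1923 lower and 1787 higher became 3442 and 3630 with array weights, 1091 and 1068 with sex as a block, and 406 and 395 at 0.01. Leaving out 1 array gave 476 to 2879 lower and 476 to 2663 higher. The median difference of the 50 was -0.60, against -0.93 over genes with a mean of at least 6, which leaves out 17 of the 50, and -0.65 to -0.41 on leaving out 1 array. With the replicate block 26 of the 50 and 2605 lower and 2534 higher genes were called. The block added B2m, Ctss, H2-Aa, H2-Ab1, H2-Q2, Tap2 and Tapbp and changed no other call among the 50. The block without the pair numbered 1, chosen after seeing the data, called 25. Median centring and quantile normalization each called 18. The 9 genes called under all 16 alternatives were Erap1, H2-DMa, Psmb8, Psmb9, Psmb10, Psme1, Psme2, Tap1 and Tapbpl. The cause of these changes was not tested.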

Other observations

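Genes that trim peptides in the cytosol, before transport, were mixed. Of 6 measured cytosolic peptidases 0 were lower and 1 was higher. The higher one, Blmh, a cysteine peptidase, differed by 1.14 (adjusted p = 0.0152 by limma), and it was not called without transgenic replicate 1 or 3 or control replicate 2 or 3 (0.0569 to 0.0647). Lap3, an aminopeptidase, differed by -0.99 with an adjusted p of 0.0580, and 0.0116 with the replicate block. With the block 1 of the 6 was lower and 3 were higher, beside 13.1% and 12.7% over all genes. Tpp2 and Thop1 differed by 0.47 and 0.88, with adjusted p-values of 0.0657 and 0.0772.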
